A study of Mus musculus with 12 samples.

Results

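The chemokine genes described here were the array genes whose symbol marks them as a chemokine ligand (Ccl, Cxcl, Cx3cl or Xcl) or a chemokine receptor (Ccr, Cxcr, Cx3cr or Xcr). Gene symbols were assigned through the RefSeq accession of each probe, and 52 of the 32524 genes on the array met this rule, namely 34 ligands and 18 receptors read by 62 probes. A further 10 reference genes that match the rule had no probe assigned. Cxcl11, Ccl21a and Ccl21b were not among the 52. Liver RNA came from 6 Floxed and 6 LKO male C57BL/6 mice, all 30 weeks old and kept on laboratory chow, and each mouse had its own single-color Agilent array. Floxed mice carried Phgdh flox/flox alleles and no Cre, whereas LKO mice carried Albumin+/Cre; Phgdh flox/flox. Phgdh encodes the enzyme that commits 3-phosphoglycerate to serine synthesis. Because Cre was driven by the Albumin gene, the deletion was directed at hepatocytes and not at the leukocytes and sinusoidal cells that carry most chemokine receptors. Cre was present in LKO mice only, so an effect of Cre itself and an effect of the deletion cannot be told apart.

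Chemokines are small secreted proteins that attract cells along a gradient, and their receptors are G protein-coupled receptors, mostly on leukocytes. In the liver, Cxcl12 holds cells that carry Cxcr4, Cxcl9 and Cxcl10 draw activated T cells through Cxcr3, Ccl2 draws monocytes through Ccr2, Cxcl1 draws neutrophils through Cxcr2, and Cxcl16 holds NKT cells through Cxcr6. Hepatocytes, sinusoidal endothelial cells, stellate cells and Kupffer cells (the resident macrophages) all make ligands, and many of these genes are induced by interferons or by NF-kB. In RNA of whole liver, fewer cells of a type and less RNA per cell cannot be told apart.

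There were 3 slides with 4 arrays on each. All mice on slide 1 were Floxed, all mice on slide 3 were LKO, and slide 2 held Floxed mice 5 and 6 with LKO mice 1 and 2, so the difference within slide 2 is given beside the differences over all arrays. A fit with slide as a fixed block gives this same difference within slide 2, because slides 1 and 3 hold 1 genotype each. Between 21614 and 24252 of the 39429 probes on an array were well above background, which is the mark that the scanner software sets on a spot clearly brighter than its local background. All 8 hepatocyte markers on the list, among them Alb and Ttr, were well above background on every array. Phgdh lay between 4.81 and 5.50 in the Floxed group and between 4.23 and 5.30 in the LKO group, with a log2 fold change of -0.48 (SE 0.18, limma adjusted p = 0.451) that passed the unadjusted threshold of 0.05 used for calls, although the groups overlapped. Within slide 2 it differed by -0.055.

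The first question was which chemokine genes the liver RNA showed at all. A gene counted as detected on an array when its brightest probe was well above background there. On all 12 arrays, 22 of the 52 chemokine genes (42.3%) were detected, compared with 52.0% of every gene on the array. Only 20283 of the 32524 array genes had a symbol, and the others were counted under the transcript name of their probe. All chemokine genes have a symbol by the rule, so these shares come from unlike sets. The 22 detected chemokine genes were 16 of the 34 ligands and 6 of the 18 receptors. A further 14 genes were detected on some arrays, and 16 genes on none. The number of chemokine genes detected per array ranged from 25 to 33 in Floxed mice (median 29.5), against 22 to 32 in LKO mice (median 29), so the genotypes overlapped almost entirely.

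**Figure D1:**
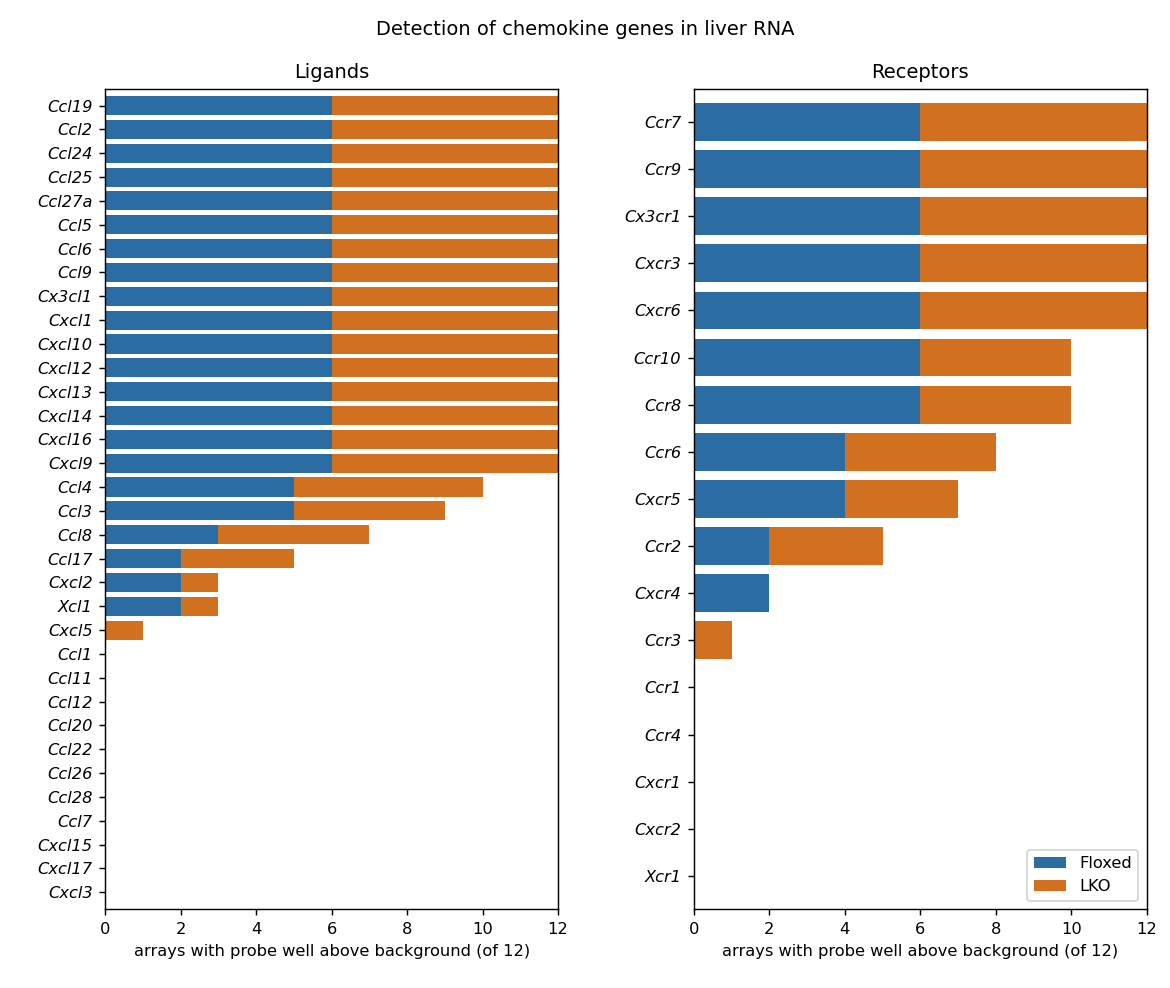
Number of arrays on which the brightest probe of each chemokine ligand (left) and receptor (right) was well above background. The bar is split into Floxed (blue, up to 6 arrays) and LKO (orange, up to 6 arrays), and 21 of the genes drawn reach all 12 arrays whereas 16 genes have no bar.

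The ligands detected on every array included those of resting tissue (Cxcl12, Cxcl14, Cxcl16, Ccl25, Ccl27a, Cx3cl1), those that attract T cells (Cxcl9, Cxcl10, Ccl5), the lymphoid tissue ligands Cxcl13 and Ccl19, the monocyte and neutrophil ligands Ccl2 and Cxcl1, the eosinophil ligand Ccl24, and Ccl6 and Ccl9, which are rodent ligands of myeloid cells. Receptors detected on every array included Cxcr3, Cxcr6, Ccr7, Ccr9 and Cx3cr1, which are found on lymphocytes or mononuclear phagocytes. The neutrophil receptors Cxcr1 and Cxcr2 were not well above background on any array, although Cxcl1, a ligand of Cxcr2, was detected on all 12. Likewise Ccr1 was detected on no array, although its ligands Ccl6 and Ccl9 were detected on all 12. Ccr2, the receptor of Ccl2, was detected on 2 Floxed and 3 LKO arrays. Cxcr4, the receptor of Cxcl12, was detected on 2 Floxed arrays and no LKO array. A receptor probe below this mark has only an upper bound on its level, and a lack of the mark is not a lack of the mRNA.

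Among the ligands detected on only some arrays, Ccl4 was detected on 5 Floxed and 5 LKO arrays, Ccl3 on 5 and 4, Ccl8 on 3 and 4, Ccl17 on 2 and 3, Cxcl2 and Xcl1 each on 2 and 1, and Cxcl5 on 1 LKO array. Ccl3 and Ccl4 are paired inflammatory ligands, and both lacked the mark on the arrays Floxed 2 and LKO 5. These were also the arrays with the fewest chemokine genes detected in their group (25 and 22). They had the fewest probes of any gene well above background in their group as well (21614 and 22399), so the pattern was not limited to chemokine genes. Among the receptors, Ccr8 and Ccr10 were each detected on 6 Floxed and 4 LKO arrays, Ccr6 on 4 and 4, Cxcr5 on 4 and 3, and Ccr3 on 1 LKO array. The genes detected on no array were Ccl1, Ccl7, Ccl11, Ccl12, Ccl20, Ccl22, Ccl26, Ccl28, Cxcl3, Cxcl15, Cxcl17, Ccr1, Ccr4, Cxcr1, Cxcr2 and Xcr1. Ccl7 and Ccl12, the close relatives of Ccl2, thus did not pass the mark in any mouse, whereas Ccl2 passed it in all of them.

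The comparison of LKO with Floxed mice was made by limma across 16915 genes. Each was read by its brightest probe among those well above background on every array. Of the 22 tested chemokine genes, 0 were called at an unadjusted p below 0.05, whereas 8.35% of all tested genes were called, 4.92% as higher and 3.43% as lower in LKO mice. After Benjamini-Hochberg adjustment 0 genes passed anywhere on the array, with a smallest adjusted p of 0.132, and the adjusted p of the chemokine genes lay between 0.805 and 0.999. No chemokine gene separated the 6 LKO from the 6 Floxed mice without overlap, compared with 0.296% of all tested genes. The smallest unadjusted limma p was 0.151, for Ccr7. The smallest p of the two-sided exact permutation test was 0.184, where 6 against 6 mice allow 0.00216.

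The 22 genes were evenly divided in sign, with 11 higher and 11 lower in LKO mice, and the median log2 fold change was -0.0056, close to the -0.0035 of all tested genes. Of the ligands 7 were higher and 9 lower, and of the receptors 4 were higher and 2 lower. The median size of the log2 fold change irrespective of sign was 0.092, compared with 0.088 for all tested genes. In every one of the 22 genes the SD between mice of one genotype was larger than the difference between the genotypes. A p above the threshold does not show that a gene was equal in both genotypes, so the 95% confidence intervals of the differences are given with the genes below.

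**Figure D2:**
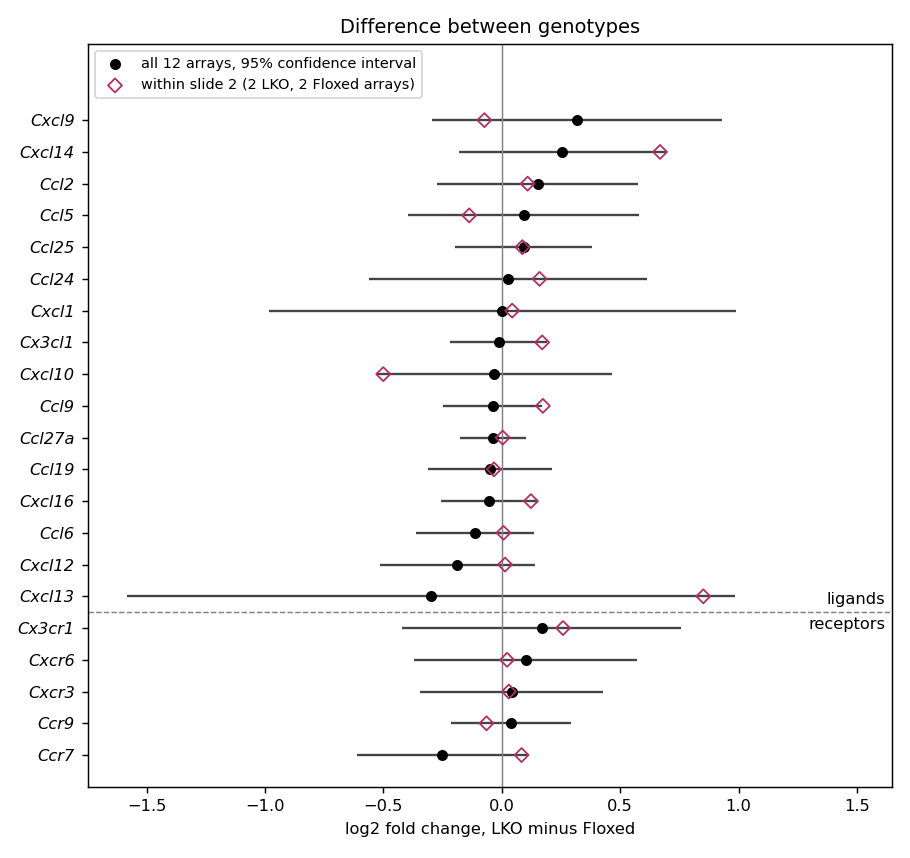
Log2 fold change (LKO minus Floxed) of 21 tested chemokine genes with its 95% confidence interval from limma over all 12 arrays (points and lines), and the difference within slide 2, from 2 LKO and 2 Floxed arrays (diamonds). Every interval includes 0, the widest is that of Cxcl13 (from -1.58 to 0.98), and the diamond lies on the other side of 0 from the point in 11 genes.

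Of the ligands of resting tissue, Cxcl12, which keeps Cxcr4-bearing cells in place, had log2 intensities of 13.51 to 13.89 in Floxed mice (median 13.77) and 12.86 to 13.96 in LKO mice (median 13.64). The lowest value belonged to LKO mouse 5, and the other 11 mice lay between 13.51 and 13.96. The log2 fold change was -0.19 (95% confidence interval -0.52 to 0.14), within slide 2 it was 0.014, and without LKO mouse 5 it was -0.049. Ccl27a, a ligand of Ccr10 best known from skin, ranged from 10.32 to 10.56 in Floxed mice (median 10.42), against 10.30 to 10.47 in LKO mice (median 10.39). This was the narrowest interval of the 22 genes, with a log2 fold change of -0.04 (-0.18 to 0.10), so that an LKO level between 0.884 and 1.07 times the Floxed level was inside the interval, and within slide 2 it differed by 0.0037. Ccl25, the ligand of Ccr9, differed by 0.09 (-0.20 to 0.38), Cxcl16, the membrane-bound ligand of Cxcr6, by -0.05 (-0.26 to 0.15), and Cx3cl1, the membrane-bound ligand of Cx3cr1, by -0.01 (-0.22 to 0.19). Within slide 2 these differences were 0.087, 0.12 and 0.17, respectively. Cxcl14, a ligand of epithelia, differed by 0.25 (-0.18 to 0.69) over all arrays and by 0.67 within slide 2.

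Ccl6 and Ccl9 are closely related ligands of Ccr1 made by macrophages. For Ccl9, Floxed mice ranged from 11.97 to 12.41 (median 12.21) and LKO mice from 11.94 to 12.31 (median 12.18). Ccl6 ranged from 9.26 to 9.77 (median 9.61) and from 9.06 to 9.76 (median 9.47), respectively. In both genes the highest LKO value was below the highest Floxed value, and the ranges overlapped over most of their width. The log2 fold change was -0.04 (-0.25 to 0.17) for Ccl9 and -0.11 (-0.36 to 0.14) for Ccl6, and within slide 2 these were 0.17 and 0.0069. Ccl24, a ligand of the eosinophil receptor Ccr3, differed by 0.02 (-0.56 to 0.61), and by 0.16 within slide 2.

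Cxcl9 and Cxcl10 are interferon-induced ligands that share the receptor Cxcr3. Cxcl9 had log2 intensities of 7.58 to 9.10 in Floxed mice (median 8.33) and 7.86 to 9.08 in LKO mice (median 8.78). The highest mouse of each genotype was at the same level, and the groups overlapped over most of their range. Its log2 fold change of 0.32 (-0.30 to 0.93) had the largest size among the 22 genes, but within slide 2 the difference was -0.07. Cxcl10 ranged from 7.14 to 8.53 in Floxed mice (median 8.03), against 7.28 to 8.41 in LKO mice (median 7.94), and every LKO value lay within the Floxed range. The difference was -0.03 (-0.53 to 0.46) over all arrays and -0.50 within slide 2. Ccl5, made by T cells and NK cells, ranged from 8.0 to 9.17 in Floxed mice (median 8.33), against 7.59 to 8.78 in LKO mice (median 8.69). Here 1 mouse stood apart in each genotype, Floxed 6 at 9.17 above the others and LKO 4 at 7.59 below the others. The difference was 0.09 (-0.40 to 0.58), it was -0.14 within slide 2, and it ran from 0.0099 without Floxed mouse 2 to 0.27 without LKO mouse 4.

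Ccl2 and Cxcl1, the inflammatory ligands of monocytes and neutrophils, are both targets of NF-kB. Ccl2 had log2 intensities of 5.42 to 6.71 in Floxed mice (median 6.10) and 6.00 to 6.48 in LKO mice (median 6.33), with the LKO values inside the Floxed range. Its log2 fold change was 0.15 (-0.27 to 0.58), it was 0.11 within slide 2, and it was 0.0083 without Floxed mouse 2. Cxcl1 ranged from 7.40 to 10.22 in Floxed mice (median 7.78), against 7.14 to 8.94 in LKO mice (median 8.46). Floxed mouse 1, at 10.22, was the highest of all 12. The means differed by 0.0027 (-0.98 to 0.99), although the medians differed more, and the log2 fold change was 0.044 within slide 2 and 0.40 without Floxed mouse 1. An LKO level between 0.506 and 1.98 times the Floxed level was thus inside the interval of Cxcl1.

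The lymphoid tissue ligands Cxcl13, which attracts B cells through Cxcr5, and Ccl19, which attracts dendritic cells and naive T cells through Ccr7, differed in their spread. Ccl19 differed by -0.05 (-0.31 to 0.21) between genotypes (-0.033 within slide 2) and lay between 6.36 and 7.02 in all 12 mice. Cxcl13 ranged from 6.07 to 9.12 in Floxed mice (median 6.39), against 5.43 to 8.28 in LKO mice (median 6.56). The highest mouse was Floxed 3 and the next was LKO 6, so that each genotype had a mouse far above its median. The log2 fold change was -0.30 (-1.58 to 0.98), it was 0.85 within slide 2, and it was 0.13 when Floxed mouse 3 was left out.

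Among the receptors, Cxcr6, found on NKT cells and resident T cells, had log2 intensities of 5.69 to 6.73 in Floxed mice (median 6.42) and 5.59 to 6.78 in LKO mice (median 6.48). Ccr7, the homing receptor of naive T cells and mature dendritic cells, ranged from 5.36 to 5.98 in Floxed mice (median 5.84), against 4.90 to 5.92 in LKO mice (median 5.53). Cxcr3, the receptor of Cxcl9 and Cxcl10, ranged from 4.72 to 5.77 (median 5.51) and from 4.92 to 5.81 (median 5.48), respectively. The ranges of the genotypes overlapped in all 3 receptors. Their log2 fold changes were 0.10 (-0.37 to 0.57) for Cxcr6, -0.25 (-0.61 to 0.11) for Ccr7 and 0.04 (-0.34 to 0.43) for Cxcr3, and within slide 2 these were 0.022, 0.083 and 0.030.

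Cx3cr1, the receptor of Cx3cl1 on monocytes, differed by 0.17 (-0.42 to 0.76), and Ccr9, the gut-homing receptor that binds Ccl25, by 0.04 (-0.21 to 0.29). Within slide 2 these differences were 0.26 and -0.065.

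**Figure D3:**
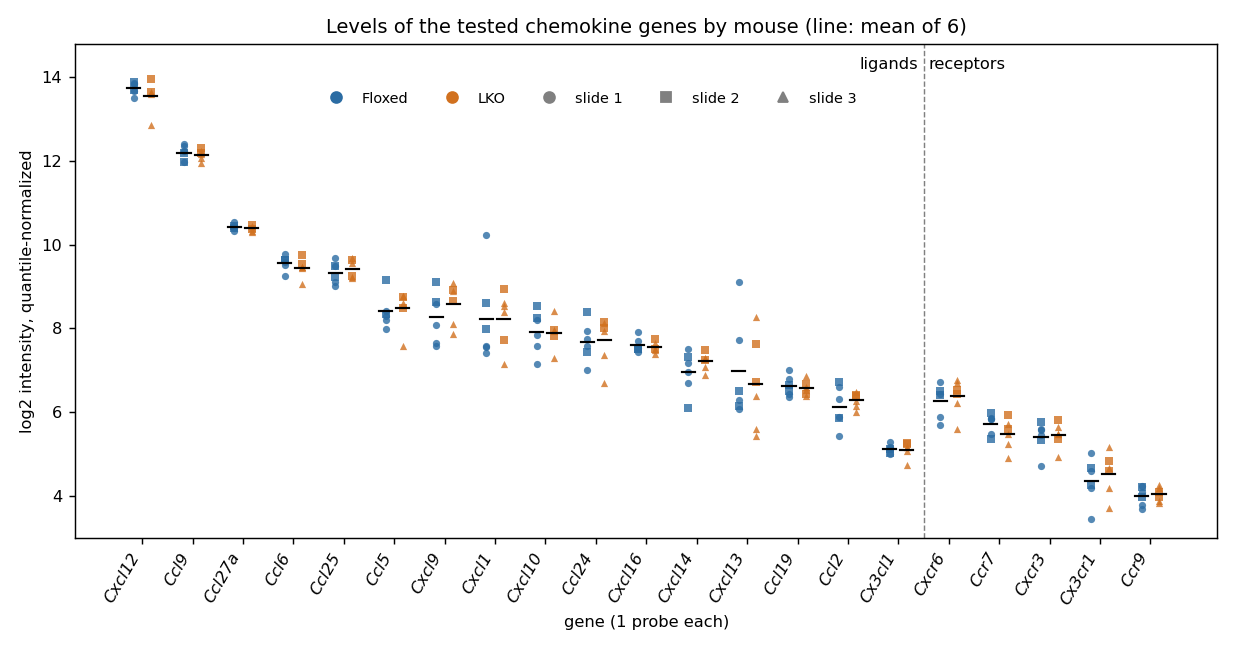
Log2 intensity of 21 tested chemokine genes in each mouse, with ligands to the left and receptors to the right of the dashed line. Color gives the genotype, marker shape the slide and the black line the mean of 6 mice, and in each gene the Floxed (blue) and LKO (orange) points overlap. Each gene is read by its own probe, so heights are not comparable between genes.

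The array carried several probes for 8 of the 52 genes, and these did not always give the same picture. Both probes of Cxcl9 followed each other over the 12 arrays (r = 0.954, log2 fold changes 0.32 and 0.43), as did both probes of Cxcr6 (r = 0.917). The 3 probes of Ccl27a correlated pairwise with r from 0.691 to 0.768. The second Cxcl12 probe, which reads another RefSeq transcript, correlated with the first at r = 0.627 and gave a log2 fold change of 0.02 in place of -0.19. Both Ccl25 probes were above background on all arrays but correlated at only r = 0.219 and gave opposite signs (0.09 and -0.30). The second Ccl25 probe also reads another RefSeq transcript and was far dimmer, with a Floxed mean of 4.37 against 9.34. The 3 Ccl19 probes correlated between -0.23 and 0.49, and the dimmest of them gave a log2 fold change of -0.21 (limma over all probes, adjusted p = 0.480) where the brightest gave -0.05. That dimmest probe was detected on all 12 arrays and passed the unadjusted threshold of 0.05, whereas the gene, read by its brightest probe, did not. The second probe of Cx3cr1 was above background on 0 Floxed and 2 LKO arrays.

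The disagreement was most complete for Ccr8, a receptor of regulatory and type 2 helper T cells that was detected on 10 of 12 arrays and so was not among the tested genes. Its brighter probe ranged from 3.55 to 4.61 in Floxed mice, was at 4.03 and 4.29 in LKO mice 1 and 2, and lay between 3.31 and 3.66 in LKO mice 3 to 6. Its dimmer probe was well above background only in LKO mice 3 to 6, where it lay between 3.60 and 4.07. The probes thus ran in opposite directions (r = -0.626), with a log2 fold change of -0.53 for the brighter probe (limma over all probes, adjusted p = 0.523). The dimmer probe had no Floxed array above background, so the size of its difference was not measured. Its mean over the 6 LKO arrays was 1.03-fold above the upper bound for the Floxed arrays, but LKO mice 1 and 2 were themselves below the mark. The adjusted p of 0.551 (limma over all probes) belongs to the log2 difference of 1.13 between the values as read. LKO mice 3 to 6 are the arrays of slide 3, and the LKO mice on slide 2 did not show the pattern in either probe, so that genotype and slide cannot be told apart here.

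The chemokine genes differed between mice of one genotype more than most genes on the array. The median SD between mice of one genotype was 0.354 for the 22 genes, compared with 0.222 for the tested genes with a value on every array, and 15 of the 22 (68.2%) lay above that overall median. Cxcl13 had an SD of 1.17, above that of 99.8% of all tested genes and of 99.6% of the 500 genes nearest to it in intensity. Cxcl1 had an SD of 0.89 and was above 99.0% of its 500 nearest genes, and Cxcl9 had an SD of 0.55 and was above 95.8%. At the other end Ccl27a, with an SD of 0.072, was above only 1.8% of its 500 nearest genes, and Cx3cl1, with 0.154, above only 2.0%.

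**Figure D4:**
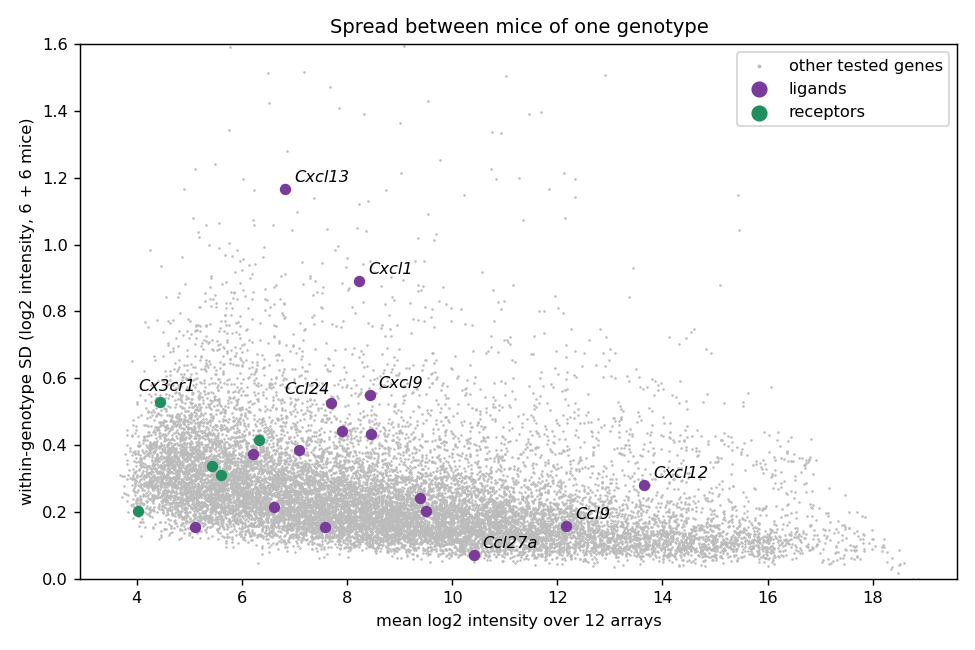
SD between mice of one genotype (log2 intensity, pooled over 6 Floxed and 6 LKO mice) against the mean log2 intensity, for the chemokine ligands (purple), the receptors (green) and all other tested genes (gray). Cxcl13 (1.17) and Cxcl1 (0.89) lie far above the genes of like intensity and Ccl27a (0.072) lies at the bottom, and 9 genes of the array lie above the end of the vertical axis.

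The 250 bases before the transcription start are printed for Cxcl13, Cxcl1 and Cxcl9, the members with the largest spread between mice, and for Cxcl10, which shares its receptor with Cxcl9. All 4 genes lie on chromosome 5 in the mouse genome, and the sequences come from RefSeq on build GRCm38.p6, written on the strand of the gene. Capitals mark letters that match an NF-kB site (GGGA, any 2 bases, T, any base, CC) or an interferon-stimulated response element (GAAA, any 2 bases, GAAA) on either strand.
Cxcl13, chr5:95956689-95956938, plus strand: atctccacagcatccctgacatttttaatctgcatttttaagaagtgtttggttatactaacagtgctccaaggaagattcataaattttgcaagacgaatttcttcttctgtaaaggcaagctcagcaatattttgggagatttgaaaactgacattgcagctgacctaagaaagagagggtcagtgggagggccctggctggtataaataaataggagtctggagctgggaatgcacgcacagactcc
Cxcl1, chr5:90890995-90891244, plus strand: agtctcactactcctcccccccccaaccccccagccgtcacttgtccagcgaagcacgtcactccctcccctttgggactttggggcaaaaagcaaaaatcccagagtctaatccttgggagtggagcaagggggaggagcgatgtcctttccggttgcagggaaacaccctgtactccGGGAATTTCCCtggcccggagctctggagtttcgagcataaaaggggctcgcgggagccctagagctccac
Cxcl9, chr5:92328080-92328329, minus strand: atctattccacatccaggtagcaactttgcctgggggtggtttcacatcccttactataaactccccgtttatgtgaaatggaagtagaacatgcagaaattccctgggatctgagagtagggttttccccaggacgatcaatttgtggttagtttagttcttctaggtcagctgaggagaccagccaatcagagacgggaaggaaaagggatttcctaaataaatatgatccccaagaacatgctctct
Cxcl10, chr5:92348890-92349139, minus strand: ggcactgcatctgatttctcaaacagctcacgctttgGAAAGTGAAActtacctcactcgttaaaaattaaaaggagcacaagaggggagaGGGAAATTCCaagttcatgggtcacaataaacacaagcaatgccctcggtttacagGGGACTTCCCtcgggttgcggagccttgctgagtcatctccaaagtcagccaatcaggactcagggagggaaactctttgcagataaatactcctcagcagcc

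Cxcl1 held an NF-kB match from 71 to 61 bases before the start, where a match on each strand overlaps the other. Cxcl10 held NF-kB matches at 159 to 150 and at 103 to 94 bases before the start and an interferon response match at 213 to 204. No match to either motif was found in the windows of Cxcl9 and Cxcl13. In the 250 bases before the start, the NF-kB letters were present in 7 of the 42 promoters of 38 chemokine genes (16.7%), compared with 3.33% of all 32851 promoters. The 7 were those of Ccl1, Ccr3, Ccr6, Cxcl1, Cxcl2, Cxcl3 and Cxcl10. The interferon response letters were present in 3 (Ccl19, Cxcl10, Cxcl14) compared with 2.98% of all promoters. A match of letters is not evidence of a bound site. Of the 7 genes with NF-kB letters, Cxcl1 and Cxcl10 were detected on all 12 arrays, Cxcl2 and Ccr6 on 3 and 8, Ccr3 on 1, and Ccl1 and Cxcl3 on none.

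The level of each chemokine gene was then set against the markers of the cell types of the liver over the 12 mice, with pairs of ligands and receptors and pairs of a ligand and an inducer as further relations. Of the 124 relations computed, 1 passed Benjamini-Hochberg adjustment in both Pearson's and Spearman's form, that of Cxcl13 with the mean of the Kupffer cell and macrophage markers (r = 0.907, permutation p = 5e-05, adjusted 0.0062, and rho = 0.944, permutation p = 3e-05, adjusted 0.00372). Cxcl13 was singled out after its values had been seen, so these p-values are no independent support. The correlation was 0.917 within Floxed mice and 0.892 within LKO mice, 0.911 after each slide was centered on its mean, and 0.757 without Floxed mouse 3 and LKO mouse 6, the mice farthest from the median of the markers. A slide held 4 arrays, too few for a value of its own.

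The list held 12 markers, of which Cd68 and Cd163 were not tested. Among the 10 tested markers, Cxcl13 was most like Timd4 (r = 0.927), a receptor for dead cells on long-resident Kupffer cells, Marco (r = 0.923), a scavenger receptor, and Adgre1 (r = 0.920), a general macrophage marker. Marco itself ranged from 8.53 to 13.51 over the 12 mice, the widest range of the 10 markers. The mean of the list was not scaled by gene, so Marco weighs most in it. The median r of the 10 markers with Cxcl13 was 0.754. The relation was weakest for Clec4f (r = 0.204) and Vsig4 (r = 0.397), which also mark Kupffer cells and varied less. All 12 mice lay between 10.16 and 11.65 in the mean log2 intensity of the list, Floxed from 10.43 to 11.65 and LKO from 10.16 to 11.31, with Floxed 3 highest and LKO 4 lowest. The markers of the list were lower in LKO mice in 10 of 10 genes (median log2 fold change -0.098) without any being called, and 9 of 10 were higher with slide as a block (median 0.088). Whether the macrophage content accounts for the level of Cxcl13 was not tested.

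**Figure D5:**
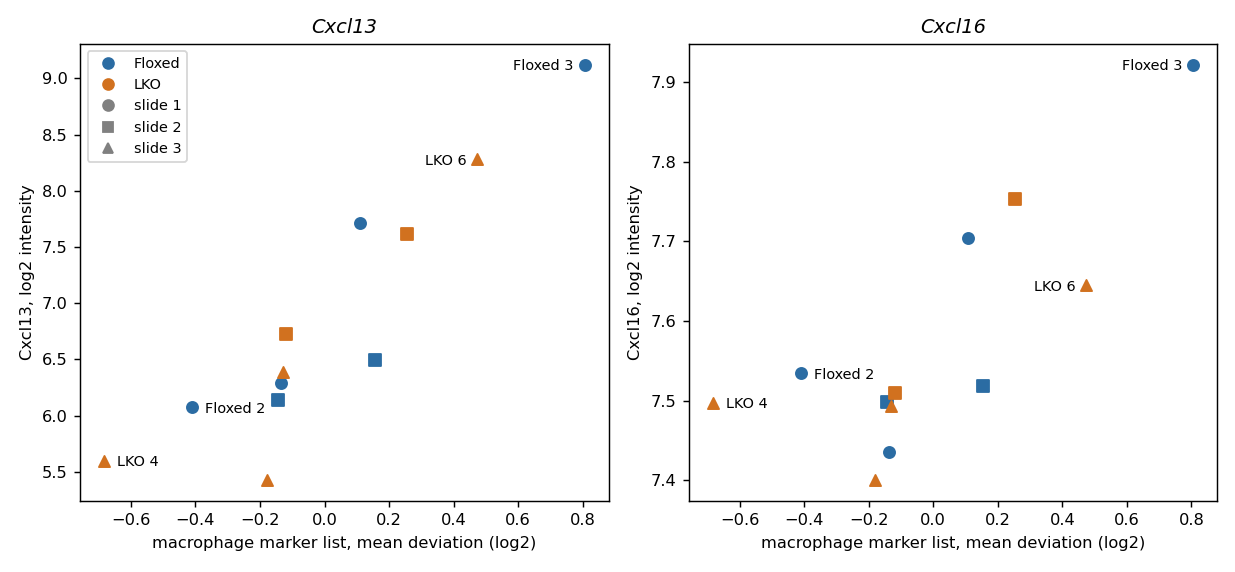
Log2 intensity of Cxcl13 (left) and Cxcl16 (right) in each mouse against the mean deviation of the 10 tested Kupffer cell and macrophage markers from their mean over all mice (log2). Color gives the genotype and shape the slide, and Cxcl13 climbs along the axis in Floxed and LKO mice alike (r = 0.907), whereas the relation of Cxcl16 (r = 0.782) did not pass adjustment.

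In Pearson's form, the nearest relations that did not pass were that of Ccr7 with the monocyte and neutrophil markers (r = 0.840, permutation p adjusted 0.0564) and that of Cxcl16 with the Kupffer cell and macrophage markers (r = 0.782, adjusted 0.10). In Spearman's form the adjusted permutation p of both was 0.384. There the nearest was that of Ccl9 with the monocyte and neutrophil markers (rho = 0.790, permutation p adjusted 0.229). No ligand and receptor pair passed. Cxcl9 and Cxcr3 had r = 0.486 and Cxcl10 and Cxcr3 had r = 0.429, and the pair of ligands had r = 0.448 with each other. The relation of Cxcl16 with Cxcr6 was -0.22, that of Ccl19 with Ccr7 0.316, that of Ccl25 with Ccr9 0.297, and that of Cx3cl1 with Cx3cr1 0.116. The adjusted permutation p of these 7 pairs lay between 0.695 and 0.878.

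Other genes of the chemokine system were described from lists. Of 13 genes outside the symbol rule (decoy receptors, platelet ligands and the like), 9 were tested and 2 were called, both higher in LKO mice, against 4.92% of all tested genes called higher. These were Ackr2, a decoy receptor that takes up inflammatory Ccl ligands (log2 fold change 0.30, limma adjusted p = 0.590), and Ccrl2, a receptor-like protein that presents chemerin (0.34, adjusted p = 0.383). Within slide 2 the differences were -0.06 and 0.19. Of 34 genes of chemokine receptor signaling, 29 were tested, 7 were higher and 22 lower, and the median log2 fold change was -0.057, whereas with slide as a fixed block 15 were higher and 14 lower with a median of 0.017. Of the 29 genes 3 were called, a share near the 8.35% of all tested genes. Plcb2, the phospholipase activated by G protein subunits in leukocytes, was called higher (0.66, adjusted p = 0.281), and it differed by 0.61 within slide 2. Rock1 (-0.33, adjusted p = 0.411), a kinase of cell contraction, and Wasl (-0.26, adjusted p = 0.512), an actin regulator, were called lower, and within slide 2 they differed by -0.04 and -0.16. With slide as a fixed block, none of these 5 called genes of the 2 lists was called.

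Of 32 inducers of chemokine genes (cytokines, their receptors, and NF-kB and interferon factors), 24 were tested, 4 were higher and 20 lower, and the median log2 fold change was -0.052. Il1b was the only cytokine gene of the list that was tested, so these counts describe receptors and signaling factors almost alone. Of the 24 genes 1 was called, against 8.35% of all tested genes. It was Tnfrsf1b, a receptor of TNF, which was lower (-0.35, adjusted p = 0.387), with -0.29 within slide 2. With slide as a fixed block, where the difference rests on the 2 LKO and 2 Floxed mice of slide 2, 16 of the inducers were higher and 8 lower, with a median of 0.058. Tnfrsf1b was then not called, and the cytokine gene Il1b was called higher (1.08, against -0.06 over all arrays). In that fit 317 of the 16915 tested genes were called. Of the 8 sinusoidal endothelial markers 4 were higher and 4 lower (median 0.024), and 1 was called, Pecam1 (0.70, adjusted p = 0.273), higher in LKO mice. Of the 4 tested dendritic cell markers 3 were higher and 1 lower (median 0.092), and 1 was called, Zbtb46 (0.49, adjusted p = 0.499), higher in LKO mice. These single calls in short lists stand against 4.92% of all tested genes called higher. Within slide 2 Pecam1 and Zbtb46 differed by 0.04 and 0.07, and neither was called with slide as a fixed block. In the remaining lists no tested marker was called, against 8.35% of all tested genes. These were the lists of Kupffer cells, monocytes and neutrophils, T and NK cells, B cells, stellate cells, cholangiocytes, platelets and hepatocytes.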

How the data were processed

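Liver RNA of 6 Floxed and 6 LKO mice was measured on 12 single-color Agilent arrays. The authors deposited the scanner intensity of every spot, with background and spatial trend removed, and a table of normalized intensity values. Intensity values of the spots are not normalized between arrays. Per the labels Feature Extraction was version 9.5.1.1, whereas the file headers give another version. RefSeq accessions matched 94.3% of the probes that carry one to a gene symbol on GRCm38.p6.

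Outlier spots and the 1377 control spots were left out, log2 processed intensities were quantile normalized, and a gene was read by its brightest probe among those marked as well above background in all 12 mice. LKO and Floxed mice were compared over 16915 genes by limma 3.58.1 under R 4.3.3, and calls were made where the unadjusted p was below 0.05 as in the array methods, and Benjamini-Hochberg adjusted p beside it. Levels are limited in precision by the number of arrays. Correlations used 100000 permutations. The fitting code was tested on simulated data. No fold changes of the authors were used.

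Chemokine genes tested were all named, except 1 that is not reported here but is included in the counts, and 1 of 3 promoter motifs searched is likewise not reported here. Values by mouse were given for the members with the brightest probes and for a set of named inflammatory members, and genes of other lists were named mainly where called. The members and lists were chosen with earlier results of these data known. Alternatives covered the normalization, background correction, the authors' table, filter, probes, outlier spots, slide, replicate number, threshold, the methods' t-test run as a comparison, and each array left out.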

Additional observations from a re-analysis of the deposited data

Results flagged for a closer look

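Of 44 groups (22 genes in 2 genotypes), 4 had a mouse set far apart from the other 5, where chance gives about 1 in 20 groups. Ccl5 was at 9.17 in Floxed mouse 6, with the other Floxed mice from 8.0 to 8.42, and at 7.59 in LKO mouse 4, with the other LKO mice from 8.48 to 8.78. Cx3cl1 was at 4.73 in LKO mouse 6, with the others from 5.08 to 5.25. Cxcl12 was at 12.86 in LKO mouse 5, with the others from 13.60 to 13.96.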

How the results depend on the processing

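The count of called genes was 1413 of 16915 in the comparison as reported and 0 after Benjamini-Hochberg adjustment. It was 2791 of 32523 with no filter on dim probes and 1788 of 19030 with a filter of at least 6 arrays. With slide as a fixed block it was 317 of 16915. Called chemokine genes, 0 in the comparison as reported, were 2 without a filter (Ccr8, -0.53, and Ccl28, which was above background on no array, so that its difference has no measured direction), and 2 with a filter of at least 6 arrays, both lower in LKO mice (Ccl3, -0.65, and Ccr8, -0.53), where the added genes were too dim to be tested otherwise. Ccl3 was above background on 5 Floxed and 4 LKO arrays, and the Ccr8 probe on 6 and 4. Both sizes thus rest in part on values below the mark, and the dimmer Ccr8 probe gave the opposite sign. No other alternative and no array left out called a chemokine gene, although the dimmest Ccl19 probe on its own passed the unadjusted threshold.

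With slide as a fixed block, the sign turned for Ccl27a (0.0037), Ccl5 (-0.14), Ccl6 (0.0069), Ccl9 (0.17), Ccr7 (0.083), Ccr9 (-0.065), Cx3cl1 (0.17), Cxcl12 (0.014), Cxcl13 (0.85), Cxcl16 (0.12) and Cxcl9 (-0.074). With a random block it turned for Cxcl1 (-0.00096) and Cxcl10 (0.0085). It also turned for Ccl25 with the mean over probes (-0.10), for Cx3cl1 with 75th percentile scaling (0.11), and for Cxcl1 with normexp (-0.055) and the authors' table (-0.00062). The cause was not tested.

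With each array left out, the sign turned within these ranges of the log2 fold change. Ccl19 ran from -0.11 to 0.029, Ccl24 from -0.11 to 0.23, Ccl9 from -0.081 to 0.0055, Ccr9 from -0.022 to 0.088, Cx3cl1 from -0.044 to 0.061, Cx3cr1 from -0.015 to 0.33, Cxcl1 from -0.16 to 0.40 (without Floxed 1), Cxcl10 from -0.19 to 0.089, Cxcl13 from -0.62 (without LKO 6) to 0.13 (without Floxed 3), Cxcl16 from -0.093 to 0.011, Cxcr3 from -0.10 to 0.15 and Cxcr6 from -0.015 to 0.26. Without a change of sign, Cxcl12 ran from -0.27 to -0.049 (without LKO 5), Ccl2 from 0.0083 (without Floxed 2) to 0.27 and Ccl5 from 0.0099 (without Floxed 2) to 0.27 (without LKO 4).

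The replicate number as a block gave 1428 called genes and no called chemokine gene. The paper describes the Floxed controls as littermates, and the titles give neighboring mouse numbers to mice with the same replicate number. Which mice share a litter is not given, and the main comparison did not treat them as pairs. Mice with the same replicate number deviated together with r from -0.24 to 0.32, and mice with other numbers with r from -0.43 to 0.35. These few correlations cannot decide whether the mice are pairs. Genes below the background mark have only an upper bound.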
